A study of Mus musculus with 2 samples.

Results

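The 5p arms of mouse miR-6896 to miR-7094 are a run of neighbouring miRNA numbers that are widely annotated as mirtron products. They were chosen by name: every non-control probe for an mmu-miR entry in the range from miR-6896 to miR-7094, with or without a letter, that ends in 5p. The rule reads names and no measured value. It gave 200 miRNAs of the 1881 mouse miRNAs on the array, measured with 410 of its 4415 miRNA probes.

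RNA came from whole femurs, bone and marrow together, of female mice on a C57BL/6 background at 9 months of age. One group had a sham operation and the other an ovariectomy (OVX), the removal of the ovaries, the main source of estrogen in females. No transgene, deletion or drug is given for either group. Each group was 1 RNA sample mixed from 4 mice, labelled with Cy3 and hybridised to 1 single-colour Agilent miRNA array, which asks how miRNA levels in femur differ after ovariectomy. With 1 array per group there is no replicate check and no test: "higher" and "lower" compare these 2 arrays, and the errors printed are between spots of 1 array and hold no variation between mice. In RNA from a mixed tissue, fewer cells of a type and less RNA per cell cannot be told apart.

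A mirtron is a miRNA hairpin made from a short intron. The intron is cut out by the spliceosome, its lariat is opened, and it folds into a hairpin that Dicer cuts into a 5p and a 3p arm, without the Drosha cut that other miRNA precursors need. Because introns end in AG and carry a run of pyrimidines before that end, mirtron 3p arms are rich in pyrimidines and the paired 5p arms are rich in G; many mammalian mirtrons carry extra bases on 1 side of the hairpin that are trimmed away.

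The sequences below are those of the miRNAs on which the results turn: the lowest and highest differences between arrays, the brightest signals, and the largest bound in each direction among miRNAs present on 1 array only. They are mature 5p sequences from RefSeq (assembly GRCm38.p6), 5′ to 3′, with the seed (bases 2 to 8, the part that pairs with target mRNAs) in capitals.

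miR-6997-5p: uAACAGGCuggagaggugcaga
miR-7047-5p: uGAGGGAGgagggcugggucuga
miR-6937-5p: uAGCUGUAagggcugggucugugu
miR-7036a-5p: aGCGGGGUucgguggggaagaga
miR-6995-5p: cUGGGAGUagaagggggaaacca
miR-7011-5p: aGGAGGAUgggagagggaggugu
miR-7005-5p: cCUGGGGAugggaggaccagca
miR-6918-5p: uGCUGAGGacgggauuagguucu
miR-6944-5p: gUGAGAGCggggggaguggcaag

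miR-7042-5p and miR-7040-5p also belong to this set. The positions of 8 of the sequences, each within the span of a protein-coding gene, are as follows. miR-6997-5p is at chr2:29995955-29995976 (plus strand) in Sptan1, which encodes alpha-II spectrin of the membrane skeleton. miR-6937-5p is at chr12:28679325-28679348 (plus strand) in Adi1, an enzyme of methionine salvage. miR-7036a-5p is at chr5:137296661-137296683 (minus strand) in Srrt, whose protein links cap-bound RNA to processing. miR-6995-5p is at chr19:47273562-47273584 (minus strand) in Sh3pxd2a, a scaffold of podosomes, and miR-7011-5p at chr3:88440924-88440946 (minus strand) in Sema4a, a semaphorin. miR-7005-5p is at chr2:180179797-180179818 (minus strand) in Lama5, a laminin chain of basement membranes. miR-6918-5p is at chr11:4891350-4891372 (plus strand) in Nipsnap1, and miR-6944-5p at chr13:55477754-55477776 (minus strand) in Dbn1, the actin-binding protein drebrin. Exon and intron boundaries were not used here, and the host mRNAs were not measured.

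The array reads each miRNA through short probes that match its 3′ end. All 360 probes of the 176 miRNAs with a RefSeq entry were complementary to the 3′ end of the mature sequence, 190 of the 200 miRNAs had 2 probes and 10 had 3, and probes were 10 to 21 bases long. In most cases the probes of 1 miRNA differ only by 1 added base. Probe pairs are printed for 4 miRNAs with strong signals or differences, 5′ to 3′, with the added base in capitals, because the signals within these pairs differed widely.

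miR-7047-5p short: tcagacccagccc
miR-7047-5p long: tcagacccagcccT
miR-6937-5p short: acacagacccagcc
miR-6937-5p long: acacagacccagccC
miR-7042-5p short: gtggcccttctgc
miR-7042-5p long: gtggcccttctgcT
miR-7005-5p short: tgctggtcctccc
miR-7005-5p long: tgctggtcctcccA

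The RefSeq entries show what the group shares beside its numbers. Of its 171 hairpins with an entry, 158 (92.4%) ended in AG, the last bases of an intron, against 71 of 825 hairpins of other miRNAs (8.61%). Fewer, 26 (15.2%), began with GU, the first bases of an intron, against 50 of the others (6.06%). All 171 lay within a protein-coding gene, against 472 of 825 others (57.2%). The strand of the host gene was known for 151, and in all of these 151 the hairpin lay on the same strand, against 336 of 408 others (82.4%). The hairpins had a median length of 66 bases, from 52 to 137, against 82 for the others. The features of an intron end and a host gene on the same strand are those that the label of mirtrons names; splice junctions were not analysed here.

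The mature 5p arms were rich in G. G made up a median of 43.7% of their bases against 23.8% in 1432 other mature miRNAs, and 133 of 176 (75.6%) held a run of at least 3 G, against 356 of the others (24.9%). These others include 3p arms of the same numbers, and values without them are not given here. The probes of the 5p arms were accordingly rich in GC, with a median GC content of 58.6% (quartiles 51.7% and 65.5%). It was 51.7% for the 1681 other miRNAs and 55.6% for the 199 3p arms of the same numbers, which are among the 1681.

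The OVX array was brighter as a whole. Over the 350 probes that passed background on each of the arrays, the 75th percentile of the signal was 2.02 times as high on it, and differences below are log2 values after each array was scaled to that percentile, so they are relative to other miRNAs. The share of the 56430 miRNA spots well above background was 9.24% for sham and 13.5% for OVX. Among the tissue markers, those of blood cells (miR-451a, miR-144-3p, miR-223-3p, miR-142a-3p and miR-150-5p) and 2 of 3 of cartilage (miR-140-3p and miR-140-5p) were present on both arrays, while those of liver (miR-122-5p) and nerve cells (miR-124-3p and miR-9-5p) were on neither. Of 4 skeletal muscle markers, miR-133a-3p (19.5 and 10.8) and miR-133b-3p (26.8 and 16.3) were present on the sham array only, and miR-1a-3p and miR-206-3p on neither. The blood cell markers differed by -0.63 (miR-223-3p) to 1.43 (miR-150-5p) between the arrays. The part of cell makeup in the values below was not tested.

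Most of the 5p arms were not seen in femur, and more were seen on the OVX array. A probe is called well above background here when over 50% of its spots carry that mark from the scanner software, and a miRNA is present when at least 1 of its probes is. On the sham array 23 of the 200 (11.5%) were present, beside 10.7% of all mouse miRNAs. On the OVX array 40 (20.0%) were present, beside 15.9% of all. The sham share is near the background, and the OVX share is above it. Both arrays showed 22 of them, the OVX array alone 18 (beside 5.42% of all), the sham array alone 1 (beside 0.266% of all), and neither array 159. The dimmest probe called present had a processed signal (brightness after background subtraction, in the scanner's units) of 17.8 in sham and 19.3 in OVX.

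The signals of the 41 present miRNAs were mostly low. For the 22 on both arrays, the brightest probe ranged from 19.3 to 415 on the sham array (median 42.3) and from 27.4 to 518 on the OVX array (median 70.8). Before scaling, 21 of the 22 were brighter on the OVX array, except miR-6997-5p, with a median unscaled difference of 0.88 on the log2 scale. The higher signal was not limited to present miRNAs: of all 410 probes, 296 were brighter on the OVX array, and of the 327 probes of the 159 miRNAs on neither array, 217 were. The shares over all 4415 miRNA probes are not given here, so these counts show no trait of the group. The part of overall brightness in the larger number present on the OVX array was not tested.

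**Figure D1:**
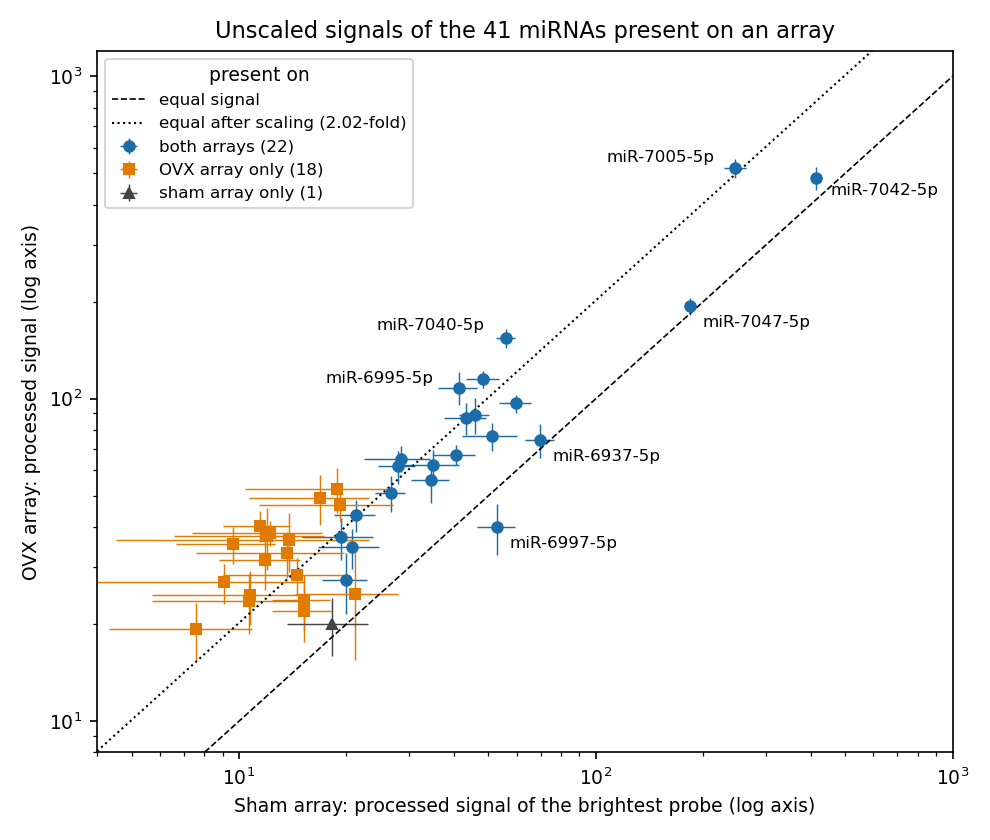
Unscaled processed signal of the brightest probe of each of the 41 present miRNAs, sham array against OVX array on log axes, with bars for the SD between spots, a dashed line for equal signal and a dotted line for equal signal after scaling. Of the 22 miRNAs on both arrays (circles), only miR-6997-5p lies below the dashed line, and miR-7042-5p, miR-6937-5p and miR-7047-5p are among those between the lines.

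The 5p arms with GC-rich probes were present more often, by a larger step than among other miRNAs. Of the 122 miRNAs with a mean probe GC content under 60%, the sham array showed 5 (4.10%) and the OVX array 16 (13.1%). Of the 78 at or above 60%, 18 (23.1%) and 24 (30.8%) were. Among other mouse miRNAs the same shares were 9.95% and 14.2% of 1246 under 60%, and 12.6% and 18.9% of 435 at or above it. So the 5p arms were seen less often than others on the sham array where GC was low and more often on both arrays where it was high; these differences in share were not tested.

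The bins of 10% show the same step. None of the 5 miRNAs under 40% was present on either array. From 40% to under 50%, the sham array showed 1 of 32 and the OVX array 4, and from 50% to under 60%, 4 and 12 of 85. From 60% to under 70% the counts were 10 (20.8%) and 16 (33.3%) of 48, and at 70% and over 8 (26.7%) on each array of 30. Other 5p miRNAs at 70% and over were present at 16.7% (sham) and 27.1% (OVX) of 48. On the OVX array the group was thus not above them in this bin. The net gain on the OVX array therefore lay in the bins from 40% to under 70%. In the highest bin the counts were equal, with 7 miRNAs on both arrays, miR-6912-5p on the OVX array only and miR-6944-5p on the sham array only.

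**Figure D2:**
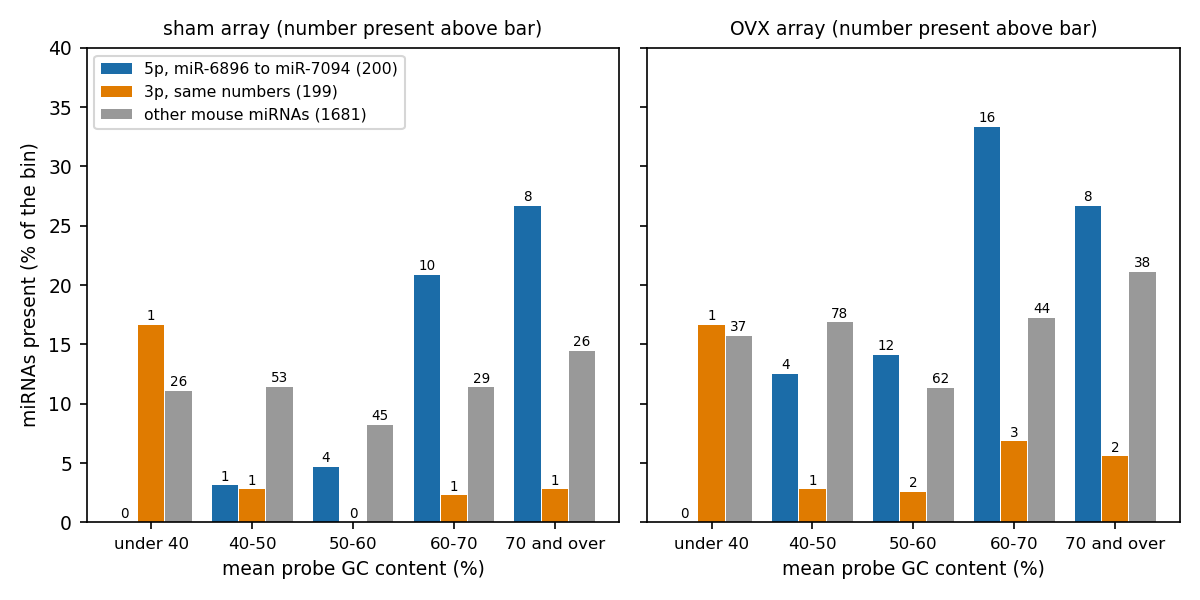
Share of miRNAs present on the sham array (left) and the OVX array (right) in bins of mean probe GC content, in % of each bin, for the 200 5p arms, the 199 3p arms of the same numbers and the 1681 other mouse miRNAs (the 3p arms among them), with the number present above each bar. The 5p arms stand highest in the bin from 60% to under 70% and in the bin of 70% and over on both arrays, and the 3p arms stay at or under 7% except in the bin under 40%, which holds 1 present of 6.

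Within the group, the miRNAs on both arrays were the richest in G. The G content had a median of 54.5% in the 20 miRNAs on both arrays with a RefSeq sequence, 46.5% in the 14 on the OVX array only and 43.5% in the 141 on neither. A run of at least 4 G was held by 11 of those 20, 3 of the 14 and 52 of the 141, and a run of at least 3 G by 17, 13 and 102. The miRNAs on the OVX array only did not stand between the others by these runs, and their median probe GC content, 58.6%, was that of the miRNAs on neither array. Every G in the RNA under a probe is a C of that probe, so the G content of the RNA and the GC content of the probe overlap. They are not the same measure, since G was counted over the whole mature sequence. Their parts in detection were not tested apart.

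The 3p arms of the same hairpins were present far less often than the 5p arms. Of 199 such arms the sham array showed 4 (2.01%) and the OVX array 9 (4.52%). Among the 198 numbers with both arms on the array, the sham array showed only the 5p arm for 21, only the 3p arm for 2 and both for 2, and the OVX array 36, 5 and 4. The gap was there at similar GC content as well: of 80 3p arms at or above 60% probe GC, 2 (2.50%) and 5 (6.25%) were present. Other 5p miRNAs on the array, 575 in number, were present at 11.1% and 16.5%.

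Of 3 long-known mouse mirtrons, the array showed 1 arm each for 2. miR-1224-5p had a sham signal of 784 ± 45.0 (SD over its spots) and an OVX signal of 1293 ± 79.9, a difference of -0.22 after scaling (0.861-fold). miR-877-3p had 27.7 ± 3.58 and 102 ± 8.42, a difference of 0.76 (1.70-fold). These signs turned too: miR-1224-5p was at 0.41 with control-probe scaling and 0.80 without scaling, and miR-877-3p at -0.02 with normexp background correction. The other arms, miR-1224-3p and miR-877-5p, and both arms of miR-702 were present on neither array.

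Across the 22 miRNAs on both arrays, differences between OVX and sham were small for most, and the side of 0 on which they lay depended on the scaling. The log2 difference, OVX minus sham, had a median of -0.13 and ran from -1.40 to 0.43 (SD between the 22, 0.45). Of the 22, 15 were below 0 (68.2%, beside 52.8% of all 197 miRNAs on both arrays), and 18 were within 1.5-fold. The count below 0 was 11 when scaled to the 75th percentile of all probes, 10 with a GC trend removed, 4 when scaled to control probes and 1 without scaling. The median over all 197 was -0.04 and over the 175 others -0.01. One was at least 2-fold lower on the OVX array (beside 2.03% of all) and none at least 2-fold higher (beside 2.03% of all). By 1.5-fold, 4 of the 22 were lower (beside 14.7% of all) and 0 higher (beside 11.2% of all). The median spot SE of a difference was 0.06, and of 12 miRNAs measured by more than 1 probe, the probes of 11 were on the same side of 0.

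miR-6997-5p, from the spectrin gene Sptan1, was the lowest. Its brightest probe had a signal of 53.0 ± 6.43 (SD, 10 spots) in sham and 39.9 ± 7.14 (10 spots) in OVX, so that it was the only one of the 22 with the lower unscaled signal on the brighter array. After scaling the difference was -1.40 (spot SE 0.05), or 0.380-fold. Its 3 probes gave -1.48, -1.42 and -1.29, and every spot of each was well above background on both arrays. It stayed at least 2-fold lower in 11 of 14 settings tried, between -1.58 and -0.39, the latter without scaling. Among these settings, asking for at least 2 probes had to return the same value.

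miR-7047-5p had nearly level unscaled signals of 184 ± 6.78 (12 spots) and 194 ± 11.6 (14 spots). Its scaled difference was -0.97 (spot SE 0.04), or 0.510-fold, with -1.01 and -0.93 from its probes. miR-6937-5p, from Adi1, was alike: 69.8 ± 6.45 (14 spots) and 74.5 ± 9.14 (15 spots), a difference of -0.92 (spot SE 0.06), or 0.530-fold, from 1 of its 2 probes. The probes of miR-7047-5p and miR-6937-5p share the 12 bases cagacccagccc. Among the 41 present miRNAs this was 1 of only 2 cases in which a probe shared a run of at least 11 bases with that of another miRNA, a search added after the values were seen.

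The other case joined miR-7036a-5p, from Srrt, with miR-6769b-5p, which is outside the group: their probes share ctcttccccacc, again 12 bases. miR-7036a-5p had 20.0 ± 2.84 (15 spots) and 27.4 ± 5.87 (15 spots), close to the dimmest signal called present, and a difference of -0.55 (spot SE 0.10), or 0.682-fold. miR-6769b-5p was brighter, at 119 and 158, with a difference of -0.61. In both cases the miRNAs that share a run had differences within 0.06 of each other. Whether 1 RNA bound both probes was not tested.

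miR-7042-5p was the brightest of the group on the sham array. Its longer probe had 415 ± 14.5 (15 spots) and 483 ± 39.1 (15 spots), and its scaled difference was -0.65 (spot SE 0.03), or 0.637-fold. Its probes gave -0.51 and -0.79. It was the fourth and last of the group past 1.5-fold; miR-7036a-5p fell just short of that threshold at 0.682-fold.

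A middle block of 12 miRNAs lay between -0.49 and 0.03. miR-6969-5p, from the colipase gene Clps, had 51.1 ± 8.96 and 76.6 ± 7.72, a difference of -0.49 (spot SE 0.05), and the lowest probe GC content of the 22, 45.4%. miR-6931-5p (34.6 and 55.8), from Dcakd, and miR-6908-5p (59.7 and 96.7), from the pyridoxal kinase gene Pdxk, were each at -0.32. miR-6973b-5p (40.4 and 67.1), from Gfra4, was at -0.28, and miR-7044-5p (20.7 and 34.6), from Rasgef1a, at -0.27. All 5 were brighter on the OVX array, but by less than the gap between the arrays.

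The next 7 were near 0. miR-6987-5p, from Pcnx3, had 35.1 and 62.1 and a difference of -0.19 (spot SE 0.08). miR-7018-5p (26.6 and 51.1), from the perlecan gene Hspg2, and miR-7070-5p (19.3 and 37.2), from Fbxw9, were at -0.07. miR-7082-5p (45.8 and 89.2), from Raver1, was at -0.04, and miR-6898-5p (43.3 and 87.1), from Kansl3, at -0.01. miR-7045-5p (27.9 and 61.7), from Chd4, a nucleosome remodeller, was at 0.01, and miR-7048-5p (21.2 and 43.6), from Dedd2, at 0.03. For the last 5 of these 7, from miR-7070-5p on, the difference was smaller than its spot SE, and the probes of miR-7045-5p, at -0.11 and 0.13, lay on both sides of 0.

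The 5 highest miRNAs were all within 1.5-fold. miR-7040-5p had 56.0 ± 3.48 (15 spots) and 154 ± 10.8 (15 spots), a difference of 0.43 (spot SE 0.03), or 1.35-fold. miR-6995-5p, from Sh3pxd2a, had 41.3 ± 5.11 (14 spots) and 108 ± 12.6 (15 spots), a difference of 0.35 (spot SE 0.06), or 1.27-fold. miR-7011-5p, from Sema4a, had 48.3 ± 5.12 (15 spots) and 115 ± 6.80 (15 spots), a difference of 0.22 (spot SE 0.04). Each of these was more than 2.02 times as bright on the OVX array and so above the gap between the arrays. miR-6984-5p, from the mitochondrial ribosome gene Mrpl21, had 28.4 ± 6.00 and 65.2 ± 5.89 (14 spots each), a difference of 0.19 (spot SE 0.07). miR-7005-5p, from the laminin gene Lama5, was the brightest of the group on the OVX array, with 246 ± 17.6 and 518 ± 35.7 (15 spots each), and its difference was 0.13 (spot SE 0.04), or 1.09-fold. miR-6995-5p, miR-7011-5p and miR-6984-5p were below 0 with normexp background correction, and miR-7005-5p was at -0.06 with median scaling and when any spot sufficed.

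**Figure D3:**
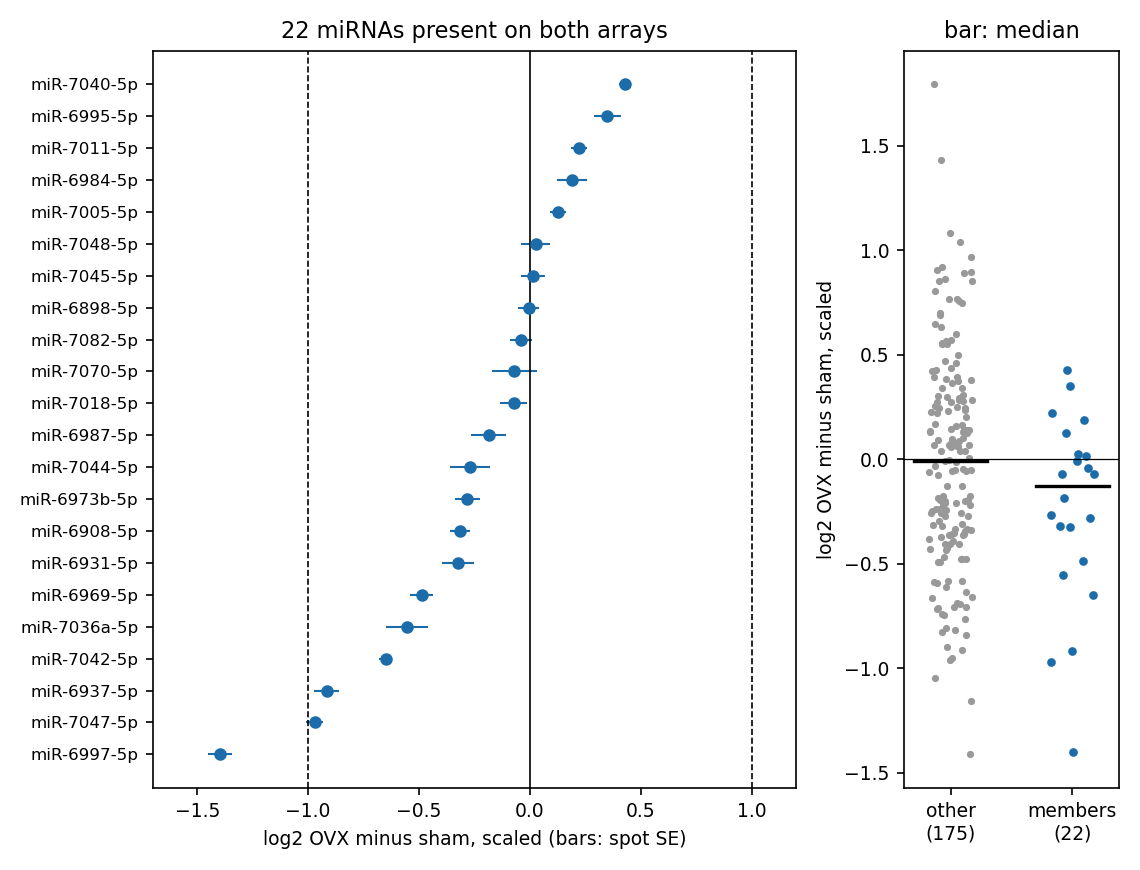
Left, scaled log2 difference (OVX minus sham) of each of the 22 miRNAs on both arrays, with bars for the spot SE and dashed lines at 2-fold; right, the same differences beside those of the 175 other miRNAs on both arrays, with a bar at each median. miR-6997-5p at -1.40 is the only point past a dashed line, and the medians are -0.13 and -0.01.

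The 18 miRNAs on the OVX array only have bounds in place of differences. A bound sets the mean signal on the OVX array against the higher of the probe's own sham signal and the lowest sham signal of any probe called present, after scaling. The bound was above 1-fold for 6 of the 18 and at or below it for 12, which get no fold, and none reached 2-fold. Without scaling all 18 bounds were above 1-fold, from 1.08 to 2.70, and 6 were at least 2-fold. In 13 of the 18, both probes were well above background on the OVX array.

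miR-6918-5p had the largest bound, with 18.9 ± 8.47 in sham, where it was not well above background, and 52.6 ± 8.26 in OVX: 1.34-fold higher, or 2.70-fold without scaling. The next were miR-6980-5p (19.2 and 46.7, 1.12-fold) and miR-6904-5p, from the DNA repair gene Parp1 (16.9 and 49.3, at least 1.11-fold). For miR-6918-5p and miR-6980-5p the sham signal of the longer probe lay above the lowest called present there (17.8). That probe gave plain differences of 0.47 and 0.27 near the detection edge, so the figures of these miRNAs are not minima. They were followed by miR-6939-5p, from the kinase gene Akt1 (11.4 and 40.4, at least 1.06-fold), and miR-7080-5p, from Cpne7 (12.2 and 38.3, at least 1.02-fold). On the OVX array these 5 were as bright as the dimmer miRNAs seen on both arrays. miR-6944-5p, from Dbn1, was the single one present on the sham array only, with 18.3 ± 4.65 there and 20.1 ± 4.07 on the OVX array, where it was not well above background (15 spots each). Its OVX signal lay above the lowest called present on that array (19.3). The scaled figure, 1.84-fold higher in sham, is therefore the plain difference of 1 probe (-0.88) near the detection edge, not a minimum. Without scaling there was no bound, since its OVX signal was the larger.

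Differences of the 22 did not follow probe GC content as those of other miRNAs did over a wider GC range, and this turned with the detection rule. Over the 22, with GC contents of 45.4% to 83.3%, Spearman's rho was -0.04. Over the 175 others, with GC contents of 26.8% to 100%, it was -0.34, so the values cover unlike ranges. The others had a median difference of 0.55 under 40% GC, where none of the 22 lay, and 0.07 from 40% to under 50%. It was -0.26 from 50% to under 60%, -0.21 from 60% to under 70% and -0.10 at 70% and over. A rho over the same range is not given here. The points share both arrays, their scaling and their overall brightness. With any spot well above background sufficing for a probe, rho was -0.44 over 39 of the group and -0.28 over all miRNAs. At or above 60% GC, the median difference was -0.19 for 17 of the group (13 below 0) and -0.18 for 55 others. Under 60% it was 0.03 for 5 of the group and 0.07 for 120 others. At or above 60% the group thus sat close to the other miRNAs. Under it the bins differed: from 50% to under 60% the median was 0.11 for 4 of the group and -0.26 for 42 others, and from 40% to under 50% it was -0.49 for 1 and 0.07 for 52. GC-rich probes made up 17 of its 22, against 55 of the 175 others.

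**Figure D4:**
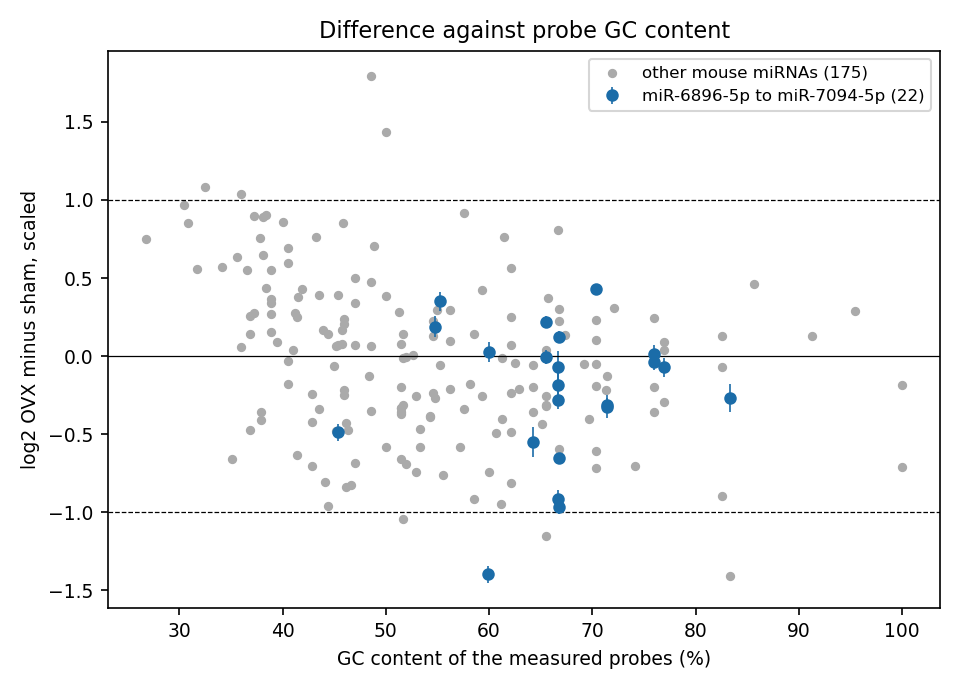
Scaled log2 difference (OVX minus sham) against the GC content of the measured probes (%) for the 22 miRNAs of the group (blue, bars for the spot SE) and 175 other miRNAs (grey), with dashed lines at 2-fold. The grey points drift from above 0 under 40% GC to mostly below 0 above 60%, and the blue points, from 45.4% to 83.3%, lie among them, with miR-6997-5p lowest at a GC content of 59.9%.

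The probe pairs show that the signal of a miRNA also depends on the probe. Of the group's 210 pairs that differ by 1 last base, 24 had a probe called present in sham and 41 in OVX, and the longer probe was the brighter in 20 (83.3%) and 37 (90.2%) of them. Where the added base was C, this held in 15 of 17 and 31 of 32. The shares were alike among other miRNAs, 86.6% of 201 and 86.2% of 305 pairs.

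In miR-6937-5p the short probe had 2.87 ± 4.32 and 9.82 ± 4.14 with no spot well above background, so that no fold is given, whereas the long probe had 69.8 and 74.5. The added T of miR-7047-5p took 38.0 ± 5.76 and 38.1 ± 4.79 to 184 and 194, or 4.84 and 5.10 times as much. That of miR-7042-5p took 153 ± 15.0 and 217 ± 16.2 to 415 and 483, or 2.71 and 2.22 times. In miR-7005-5p the added A went the other way, from 246 and 518 to 70.3 ± 9.77 and 162 ± 13.9, or 0.286 and 0.312 times. Signals of different miRNAs on this array therefore do not rank their abundance. The ratio within a pair was similar on both arrays for miR-7047-5p and miR-7005-5p, and less so for miR-7042-5p.

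Both arms were present for only a few hairpins, and for miR-7047 their scaled differences lay on opposite sides of 0. miR-7047-3p had 24.9 ± 4.16 in sham and 71.3 ± 9.76 in OVX, a scaled difference of 0.57 (spot SE 0.06), or 1.48-fold, with 0.51 and 0.62 from its probes. The 5p arm, at nearly level signals, was at -0.97, which leaves a gap of 1.54 between the arms. The gap was above 0 in all 14 settings tried, from 0.57 with normexp background correction to 1.55. The opposite sides were lost in 2 of the 14: with normexp the 3p arm was at -0.12 and the 5p arm at -0.69, and without scaling they were at 1.58 and 0.04. A gap between arms within the same arrays does not depend on a scaling by a constant. Settings that change only that constant therefore had to return the same gap and lend it nothing, here and for miR-6984 below. Asking for at least 2 probes likewise had to return the same gap for miR-7047.

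miR-6984 went the other way. Its 3p arm had 23.3 ± 4.22 and 33.8 ± 4.75, a difference of -0.48 (spot SE 0.09), or 0.719-fold, against 0.19 for the 5p arm, a gap of -0.67, which was below 0 in all 12 settings that gave it, from -0.93 to -0.28. The 3p arm alone was above 0 without scaling and with control-probe scaling. On the OVX array only, miR-7011-3p (11.3 and 36.4) and miR-7020-3p (8.80 and 23.7) joined their 5p arms. For miR-7011 the 5p arm was at 115 on that array, and for miR-7020 the 5p arm, also on the OVX array only, was at 23.8. miR-7020 was picked out after its values were seen.

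**Figure D5:**
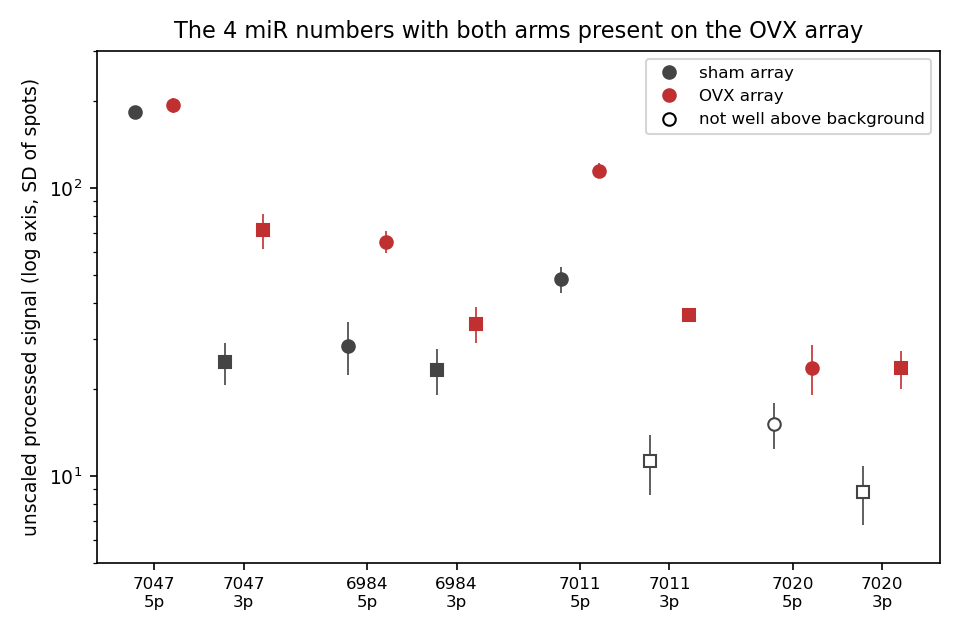
Unscaled processed signal (log axis, bars for the SD between spots) of the 5p arm (circles) and the 3p arm (squares) of the 4 numbers with both arms present on the OVX array, for the sham array (grey) and the OVX array (red), open where not well above background. The 5p arm of miR-7047 is nearly level at 184 and 194 while its 3p arm goes from 24.9 to 71.3.

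Few of the 5p arms share a seed. The 176 with a RefSeq sequence held 155 different seeds, 18 of them in more than 1 miRNA, with 39 miRNAs in such sets and at most 3 in a set. The 35 present miRNAs with a sequence held 33. Among sets with a miRNA on both arrays, miR-7005-5p shared CUGGGGA with miR-6975-5p, which was on the OVX array only (10.7 and 23.6). miR-7047-5p shared GAGGGAG with miR-6965-5p, also on the OVX array only (15.2 and 22.0). miR-7070-5p shared UGAGGGG with miR-6927-5p, which was on neither array. The probes read the 3′ end, so miRNAs with the same seed were measured by different bases.

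The other 159 miRNAs were not present by this rule on either array. Their 327 probes had signals from -6.42 to 12.8 on the sham array (median -1.67) and from -6.39 to 19.0 on the OVX array (median -1.19), beside 1.93 ± 2.81 (SD between 982 spots) and 1.36 ± 2.86 (978 spots) for the negative control spots. Some lay above the controls: against the controls' mean plus 3 SD (10.4 and 9.95), 46 of the 200 in sham and 56 in OVX had a brighter probe, against 23 and 40 present. The shares of all mouse miRNAs by this rule are not given here, so these counts show no trait of the group. An example, chosen after its values were seen, is miR-7050-5p, with 12.3 ± 3.40 and 19.0 ± 4.50 and 6 of 15 OVX spots well above background. Not being called present does not show that an RNA is absent from femur.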

How the data were processed

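The data were 2 scanner files, 1 per array. Per the file headers they were made with Agilent Feature Extraction 10.7.1.1, and the submitters' processing notes name version 11.0.1.1. The deposited processed intensity of each spot is background-subtracted and not normalized between arrays. The labels' protocols name a cRNA amplification kit for labelling. A deposited value table holds log2 values, whose making the sources used here do not give; its names were off by 1 row (Spearman's rho with the array signals 0.04 and 0.04 as printed, 0.97 and 0.97 moved), so it served as an alternative only, with names moved. Its column medians were -3.18 (sham) and -3.32 (OVX); its centring stays unknown.

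Outlier-flagged spots (123 and 126 of the group's 6000) and control spots were dropped; no spot of the group was saturated. Intensities were averaged per probe (8 to 15 spots, median 15), and log2 values were scaled to the 75th percentile over 350 probes (7.01 sham, 8.03 OVX). A difference is the mean over probes well above background on both arrays. The number of arrays limits the precision. Python 3.11.15, pandas 2.3.3, scipy 1.17.1 and, for normexp, R 4.3.3 with limma 3.58.1 were used, and the calculations were tested on simulated data.

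The members and lists were chosen with earlier results of these data known. Named were all members present on both arrays, the 5 largest bounds in each direction, their present 3p arms and 6 arms of 3 known mirtrons. Alternatives were other scalings, background correction, probe summaries, detection rules, fold thresholds and the removal of a GC trend.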

Additional observations from a re-analysis of the deposited data

How the results depend on the processing

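The number of miRNAs of the group present on the sham array, 23, was 42 when any spot of a probe sufficed. It was 12 when at least 2 probes were asked for, 39 with Agilent's gene-level detection and 46 with signals set against the negative controls. The 40 on the OVX array stayed within 1.5 times. The shares of all mouse miRNAs under these other rules are not given here. The median difference of -0.13 was 0.022 with the 75th percentile of all probes, -0.31 with median scaling, 0.88 with no scaling, 0.50 with control-probe scaling, -0.38 with normexp, 0.059 with the GC trend removed, 0.0043 with at least 2 probes and -0.90 over all 200 with dim signals floored, a value that the floors set, being equal over all 1881 miRNAs. The group's median minus that of all miRNAs was -0.09 under each scaling by a constant, which cannot change it, and 0.09 with the GC trend removed. This offset was also above 0 when any spot sufficed (0.03) and with at least 2 probes (0.01). It was below 0 in the other settings, as at -0.16 when all spots of a probe had to pass. The 1 miRNA at least 2-fold lower became 3 with median scaling and with the value table, 2 with quantile normalization, 4 when any spot sufficed and 4 by the 1.5-fold rule, and 0 with no scaling, control-probe scaling or normexp. The 0 at least 2-fold higher became 8 with no scaling and 1 with control-probe scaling. The cause was not tested. Over 14 settings, 239 of 293 differences kept their sign. Some of them could not change and lend nothing. Asking for at least 2 probes returns the same value for each miRNA that it keeps. The brightest probe and the sum of probes return it where 1 probe gave the difference. miR-6997-5p and miR-7040-5p kept their sign in every setting, and miR-7042-5p, miR-6937-5p and miR-7047-5p lost it only without scaling. Spearman's rho with GC content ran from -0.44 to 0.17 in the group and from -0.35 to -0.02 over all. No paired analysis was possible because each group has 1 sample, and slide as a block was not run because both arrays lie on 1 slide. Signals near the dimmest probe called present limit what can be ordered.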
